A study of Sus scrofa with 12 samples.

Results

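The genes described here are the cyclins, cyclin-dependent kinases (CDKs), CDK-binding proteins, CDC proteins, Aurora and Polo-like kinases, spindle checkpoint BUB proteins and subunits of the anaphase-promoting complex of pig oocytes. They were taken by platform gene symbol: CCN plus a letter, CDK, CKS, ANAPC, BUB, AURK, PLK, or CDC plus a number, without CCNDBP1 and the symbols that start with CDC42. The rule found 79 genes of 11913 with a symbol, measured by 133 features of the array. A feature with an older symbol joined ANAPC10 when symbols were updated, so the values rest on 134 features. Of the 79 genes, 31 had several features, which were averaged, and no filter on low values was applied, so every member entered every test. The study crossed a class of oocyte, LG or SM, with glial cell line-derived neurotrophic factor (GDNF), a secreted ligand of the RET receptor, in the maturation medium. The groups were LG oocytes matured with GDNF, LG oocytes matured without it, SM oocytes with GDNF and SM oocytes without it, with 3 arrays each. Oocytes of all groups came from crossbred prepubertal gilts and were matured in vitro over 44 h in TCM199 that held EGF, the gonadotropins FSH and LH, and 10% follicular fluid of pigs, then freed of cumulus cells with hyaluronidase and a glass pipette. Each array set a pool of such oocytes against 1 common reference made of oocytes from all groups. The labels do not spell out SM or LG. The design text gives 9 replicates per condition and 3 per array, while the labels give 2 per pool, so p-values measure only the spread between these pools.

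An oocyte waits in prophase of the first meiotic division until CDK1 bound to a B-type cyclin, the maturation-promoting factor, drives it into M phase. WEE kinases hold this complex inactive and CDC25 phosphatases switch it on. At anaphase the anaphase-promoting complex, a ubiquitin ligase activated by CDC20, marks cyclin B and securin for destruction, and the spindle checkpoint, to which the BUB proteins belong, holds it back until chromosomes are attached. The mature oocyte then stops again in the second metaphase, with cyclin B kept stable by MOS and by FBXO43, an inhibitor of the complex.

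The deposited values are log ratios of sample and reference and were read as log2. Pool 1 of every group lay on slide 1 and was labelled with Cy5, and the other pools lay on slides 2 and 3 and were labelled with Cy3. Slide 2 held LG GDNF 2, LG control 3, SM GDNF 3 and SM control 2, and slide 3 held LG GDNF 3, LG control 2, SM GDNF 2 and SM control 3. Ratios of a group are given in the order of pools 1, 2 and 3, and differences by slide in the order of slides 1, 2 and 3. Which channel is on top of the ratio was not settled, so a ratio above 0 is not read as more RNA in the sample, and all differences between groups are sizes whose sign has no direction of expression. In the opposite reading the ratios of slides 2 and 3 have their sign turned, and its values are given beside the differences that the text names for their p. The 8 arrays of slides 2 and 3, which share a dye orientation, correlated pairwise between 0.0315 and 0.8485 across genes. As deposited, arrays of slide 1 correlated with those of slide 2 at a median of 0.417, and with those of slide 3 at 0.343. Arrays of slide 2 correlated with those of slide 3 at a median of 0.318. In the opposite reading the correlations with slide 1 have their sign turned. What sets these correlations was not tested. Ratios hold no level, so neither the oocyte identity of the pools nor the abundance of a transcript could be checked. The median ratio of 13 measured oocyte markers lay between -0.39 and 0.52 over the 12 arrays, and that of 14 cumulus and granulosa markers between -0.44 and 0.28. LG control 2 and LG GDNF 3 stood apart from the other arrays. LG control 2 had a standard deviation (SD) of 0.87 over all features and 489 features above 4. LG GDNF 3 had the lowest median ratio of cumulus and granulosa markers and of ribosomal protein genes, which was -1.36 there and -0.59 on LG control 2, against -0.23 to 0.79 on the other 10 arrays. Their part in the results was not tested, and values without both arrays are given for part of the members named. The median of the 79 members stayed between -0.12 and 0.18 on every array, these included. Their spread did not: the SD over the members was 0.89 on LG control 2, against 0.30 to 0.58 on the other arrays. Member ratios on LG control 2 ran from -2.35 to 5.20.

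No difference between groups passed the test in any member. In limma, with the 4 groups and the slide as terms, 0 of 79 members and 0 of 11913 genes (0%) had an adjusted p under 0.05 in any of the 5 comparisons. At an unadjusted p under 0.05, 11 members counted in LG GDNF against LG control, or 13.9% of them, against 7.57% of all genes. For LG control against SM control 6 members counted, beside 7.1% of all genes, and for LG GDNF against SM GDNF 0 members, beside 2.41%. In SM GDNF against SM control 0 members counted, beside 2.34% of all genes. The difference between the GDNF responses of the classes, LG minus SM, gave 4 members, beside 4.19% of all genes. Precision is limited by the number of arrays, and their standard error (SE) for a pair of groups had a median of 0.196 over all genes. A single ratio per pool cannot tell fewer cells with a transcript from less of it per cell.

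The median size of the members' differences was 0.18 in LG GDNF against LG control, where it was 0.16 over all genes. It was 0.15 in SM GDNF against SM control, where all genes gave 0.13. Without GDNF, LG against SM had 0.15 in the members and 0.16 in all genes, and with GDNF both medians were 0.13. A size of 0.5 or more occurred in 16 members in LG GDNF against LG control, which is 20.3% of them beside 11% of all genes, and in 13 members (16.5%, beside 10.7%) in LG control against SM control. SM GDNF against SM control had 2 such members, CDC5L and CCNB3, beside 2.95% of all genes, and LG GDNF against SM GDNF had 0, beside 3.49%. CDC5L went from 0.60 to 0.11 without SM control 3, and CCNB3 from 0.53 to 0.062 without SM GDNF 1. In the opposite reading CDC5L had 0.045 and CCNB3 0.16. The class difference in the response was 0.5 or more in 19 members (24.1%, beside 15.5%), with an SE that is larger than that of a difference between groups. The comparisons that share LG control arrays, or share SM control arrays, are not independent of each other.

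**Figure D1:**
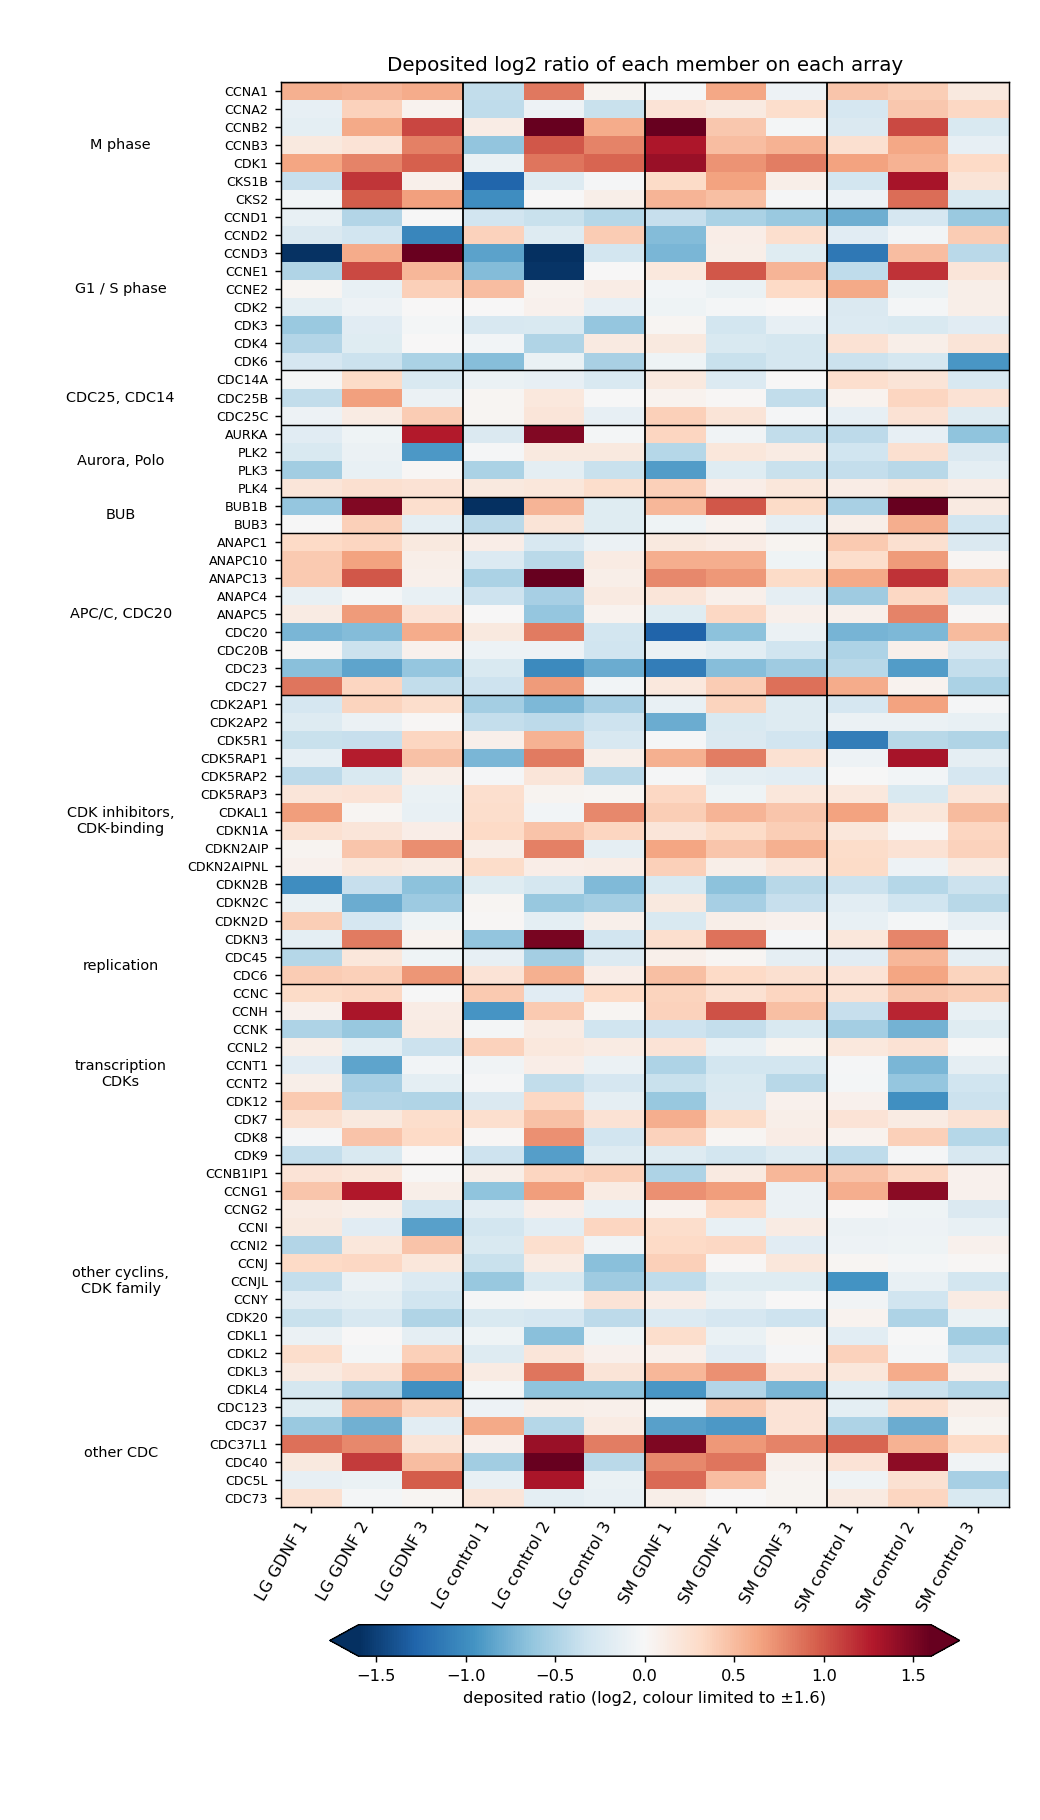
Deposited log2 ratio of each of the 79 genes (rows, grouped by role) on each of the 12 arrays (columns, by group and pool), with colour limited to ±1.6. LG control 2 holds the highest member ratio, 5.20 for CDC40, and rows such as PLK4 and CDK2 are nearly flat on every array.

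The engine of M phase was represented by 7 genes. CDK1, the kinase of the maturation-promoting factor, had ratios of 0.63, 0.79 and 0.96 on LG GDNF arrays 1, 2 and 3, against -0.10, 0.85 and 0.93 on LG control arrays. In SM oocytes they were 1.38, 0.72 and 0.82 with GDNF, against 0.65, 0.55 and 0.32 without it. CDK1 thus had a ratio above 0 on 11 of 12 arrays, LG control 1 being the exception, and the SM groups did not overlap. The SM difference was 0.46 ± 0.29 (SE), and limma gave an adjusted p of 1. Without SM GDNF 1 it was 0.15, and the opposite reading gave 0.021. The LG difference of 0.23 ± 0.29 was within its error, and was 0.26 in the opposite reading and -0.17 without LG control 1.

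The B-type cyclins measured, partners that activate CDK1, were CCNB2 and CCNB3. No feature carried the symbol CCNB1, so cyclin B1 is not covered here. CCNB2 had ratios of -0.16, 0.60 and 1.06 in LG GDNF, against 0.12, 1.65 and 0.59 in LG control. In SM oocytes CCNB2 had 1.61, 0.43 and -0.036 with GDNF, against -0.23, 1.05 and -0.24 without it. Both pairs overlapped, and arrays within a group lay more than 1 log2 unit apart, so that the differences of -0.28 in LG and 0.47 in SM were below their SE of 0.56. Turning slides 2 and 3 gave 0.10 in LG and 0.75 in SM. CCNB3 had means of 0.39 ± 0.36 in LG GDNF and 0.38 ± 0.89 in LG control (SD, n = 3 each). In SM oocytes CCNB3 averaged 0.78 ± 0.44 with GDNF and 0.25 ± 0.37 without it (SD, n = 3 each). CCNA2, the cyclin that also serves S phase, differed by -0.45 ± 0.18 between LG control and SM control (limma, adjusted p = 0.674), with 0.36 in the opposite reading. CCNA1, the germline A-type cyclin known from mouse, had its largest difference between groups, 0.41 ± 0.26, in LG GDNF against LG control, with 0.23 in the opposite reading.

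CKS1B and CKS2 are small proteins that bind CDKs and help them to reach substrates that are already phosphorylated. CKS1B had ratios of -0.37, 1.15 and 0.087 in LG GDNF, against -1.27, -0.21 and -0.021 in LG control. SM arrays of CKS1B gave 0.31, 0.64 and 0.10 with GDNF, against -0.30, 1.32 and 0.20 without it. CKS2 had -0.044, 0.97 and 0.66 in LG GDNF, against -0.99, 0.0082 and 0.095 in LG control. On each slide the LG GDNF array had the higher deposited ratio of both genes, although the groups overlapped across slides. The LG differences were 0.79 ± 0.34 for CKS1B and 0.82 ± 0.34 for CKS2. In limma their unadjusted p was under 0.05 and their adjusted p was 0.655 and 0.646. Both turned sign in the opposite reading, at -0.19 and -0.19, and neither p was under 0.05. Without LG GDNF 3 and LG control 2 the deposited sizes were 1.03 and 0.91. LG control against SM control gave -0.91 ± 0.34 for CKS1B (limma, adjusted p = 0.674), and 0.26 in the opposite reading.

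Of the 9 G1 and S-phase cyclins and kinases, CCNE1 had an unadjusted p under 0.05 in 2 comparisons. It encodes cyclin E1, the activator of CDK2 at the entry into S phase. Its ratios were -0.48, 1.05 and 0.53 in LG GDNF, against -0.70, -1.57 and 0.0077 in LG control. In SM oocytes CCNE1 had 0.17, 1.00 and 0.55 with GDNF, against -0.41, 1.16 and 0.19 without it. The lowest value came from LG control 2, and each LG control array was below the 3 other arrays of its slide. LG GDNF against LG control gave 1.12 ± 0.38 for CCNE1 (limma, adjusted p = 0.646). By slide this difference was 0.22, 1.05 and 2.10. The opposite reading gave -0.98 ± 0.50, and no unadjusted p under 0.05 in limma. Without LG GDNF 3 and LG control 2 the size for CCNE1 was 0.63, down by over 1.5 times. LG control against SM control gave -1.07 ± 0.38 for the same gene (limma, adjusted p = 0.674), 0.58 in size without both arrays and 0.87 in the opposite reading. Cyclin E2, encoded by CCNE2, had a largest size of 0.14 in any comparison, against an SE of 0.22. CDK2 itself, the kinase partner of both, had a largest size of 0.057 in the 4 comparisons between groups and an SD of 0.10 over the 12 arrays.

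The D-type cyclins partner CDK4 and CDK6 in G1. CCND2 had ratios of -0.24, -0.31 and -1.05 in LG GDNF, against 0.36, -0.20 and 0.41 in LG control, and the groups did not overlap. The CCND2 difference was -0.72 ± 0.31 (limma, adjusted p = 0.653), and 0.32 in the opposite reading. Without LG GDNF 3 and LG control 2 its size was 0.66. In SM oocytes CCND2 had -0.69, 0.11 and 0.27 with GDNF, against -0.18, -0.047 and 0.41 without it, a pair that overlapped. CCND3 had the next largest SD of the members after CDC40, 1.05. It had -1.58, 0.60 and 1.58 in LG GDNF, against -0.86, -2.35 and -0.30 in LG control, so that arrays of 1 group differed by more than the groups. With the deposited ratios the CCND3 difference in LG was 1.37 ± 0.67. Its size was 0.088 without LG GDNF 3 and LG control 2, and without LG control 2 alone the difference was 0.50. In the opposite reading it was -1.85 ± 0.54, and limma's unadjusted p was the smallest of the members in that reading of this comparison. CCND1 lay below 0 on all 12 arrays, from -0.78 to -0.0094. CDK4 and CDK6 had no difference above 0.30 in size between groups.

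**Figure D2:**
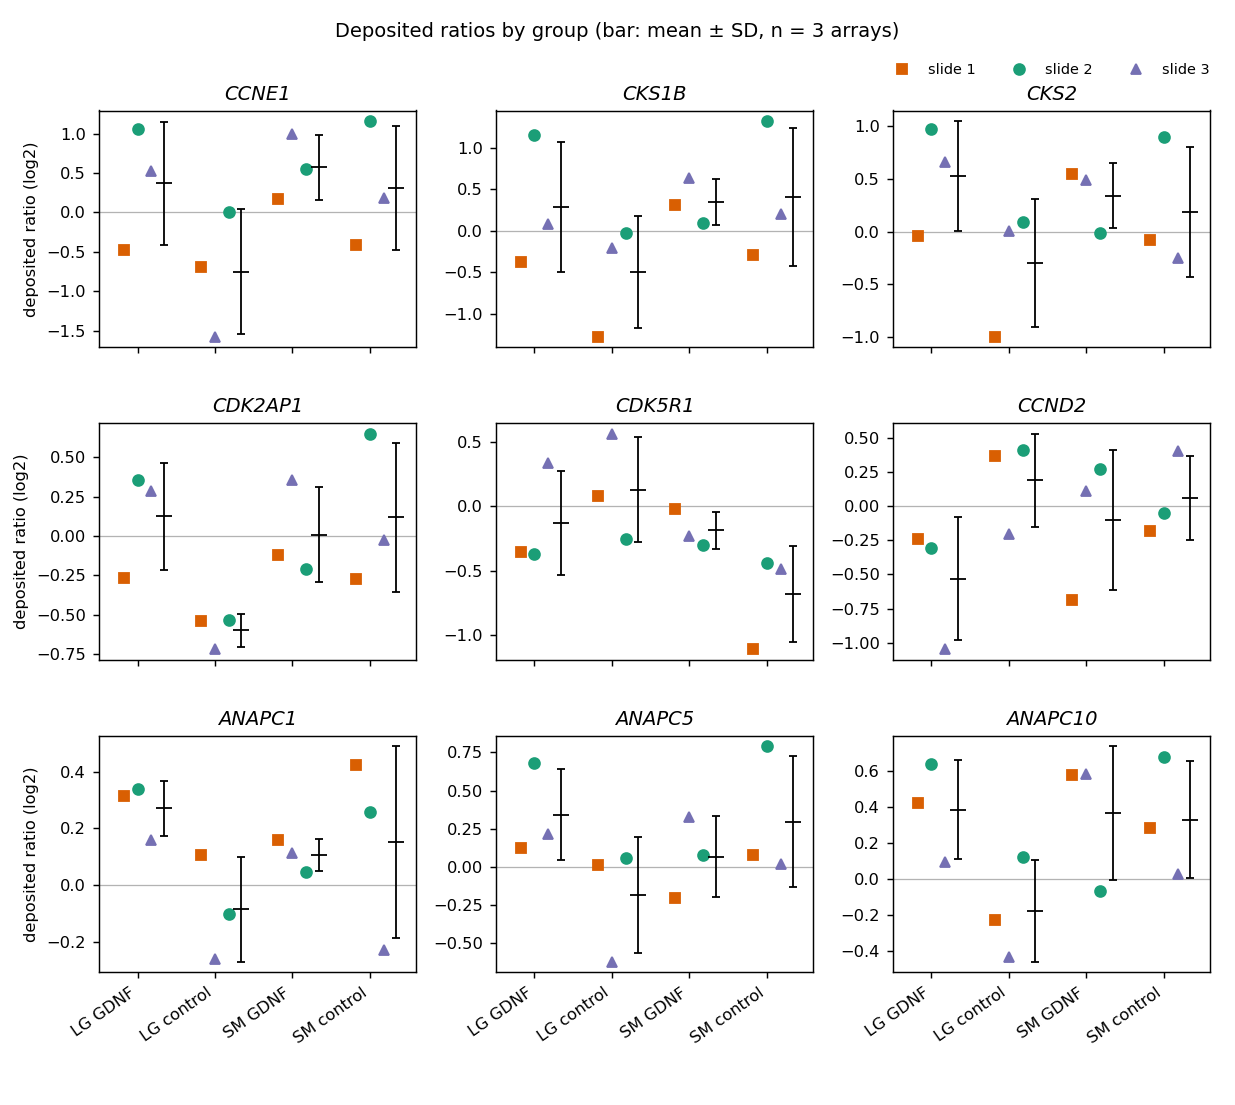
Deposited log2 ratio of 9 of the genes on each array, by group (x axis), with symbols for the slide and a bar for the mean ± SD (n = 3 arrays). CDK2AP1 has all 3 LG control arrays below the other 9, and the LG GDNF array of each slide lies above the LG control array of that slide for CCNE1, CKS1B and CKS2.

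The CDC25 phosphatases, which remove the inhibitory phosphates from CDK1, showed small differences. CDC25B, the isoform that mouse oocytes need to resume meiosis, had 0.054, 0.017 and -0.40 in SM GDNF, against 0.057, 0.35 and 0.24 in SM control. The SM groups of CDC25B did not overlap, by a narrow margin, and differed by -0.32 ± 0.25 (limma, adjusted p = 1). It was -0.067 without SM GDNF 3 and 0.32 in the opposite reading. In LG oocytes the CDC25B difference was -0.0099. In the comparisons between groups the largest size was 0.22 for CDC25C. It was 0.23 for CDC14A, a phosphatase that opposes CDKs at mitotic exit in yeast.

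The Aurora and Polo-like kinases measured were AURKA, PLK2, PLK3 and PLK4, and no feature carried the symbols PLK1, AURKB or AURKC. AURKA, which organises spindle poles, had 2 arrays far above the rest. They were LG control 2 and LG GDNF 3. AURKA had ratios of -0.18, -0.068 and 1.26 in LG GDNF, against -0.23, 1.48 and -0.030 in LG control. SM arrays of AURKA had 0.34, -0.052 and -0.39 with GDNF, against -0.42, -0.13 and -0.65 without it. The difference between LG control and SM control was 0.81 ± 0.42, its size without both arrays was 0.20, and it was -0.68 in the opposite reading. PLK2 is a Polo-like kinase of centriole duplication. It had -0.25, -0.094 and -0.91 in LG GDNF, against -0.024, 0.15 and 0.15 in LG control. The PLK2 groups did not overlap and differed by -0.51 ± 0.22 (limma, adjusted p = 0.655), with 0.36 in the opposite reading. Without LG GDNF 3 and LG control 2 its size was 0.24, and the unadjusted p was above 0.05. PLK3, a stress-responsive Polo-like kinase, differed by 0.27 ± 0.15 between LG GDNF and SM GDNF (limma, adjusted p = 1), and by -0.042 in the opposite reading. PLK4, the kinase that starts centriole duplication, varied least of all members, between 0.10 and 0.38.

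Both BUB proteins measured belong to the spindle checkpoint. BUB1B, which encodes BUBR1, an inhibitor of CDC20, had ratios of -0.62, 1.48 and 0.27 in LG GDNF, against -1.61, 0.55 and -0.19 in LG control. In SM oocytes BUB1B had 0.53, 0.99 and 0.31 with GDNF, against -0.51, 1.82 and 0.15 without it. Its SD over the 12 arrays was 0.94, and in 3 of the 4 groups its arrays spanned more than 2 log2 units. The LG difference was 0.79 ± 0.51. It was 0.45 without LG GDNF 2 and -0.14 in the opposite reading, while its size was 1.33 without LG GDNF 3 and LG control 2, with an unadjusted p under 0.05. LG control against SM control gave -0.90 ± 0.51 (limma, adjusted p = 0.765), and 0.17 in the opposite reading. Without LG GDNF 3 and LG control 2 the difference between LG control and SM control had a size of 1.37, with an unadjusted p under 0.05 in limma. BUB3, which carries BUB1B to kinetochores, had a largest size of 0.26 in the comparisons between groups.

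The list for the anaphase-promoting complex and its activator held 9 genes, among them CDC20B, which was counted by its name alone. Of the 9, 3 had an unadjusted p under 0.05 in LG GDNF against LG control, where 7.57% of all genes had one. They were ANAPC1, the largest scaffold subunit, ANAPC5, another scaffold subunit, and ANAPC10, which helps to bind substrates. ANAPC1 had 0.31, 0.34 and 0.16 in LG GDNF, against 0.11, -0.26 and -0.10 in LG control. ANAPC5 had 0.13, 0.68 and 0.22 in LG GDNF, against 0.011, -0.62 and 0.056 in LG control. ANAPC10 had 0.42, 0.64 and 0.10 in LG GDNF, against -0.22, -0.43 and 0.13 in LG control. The groups did not overlap for ANAPC1 and ANAPC5, and did for ANAPC10. The differences were 0.36 ± 0.15 for ANAPC1, 0.53 ± 0.23 for ANAPC5 and 0.56 ± 0.24 for ANAPC10. The 2 features averaged for ANAPC10 differed by 0.92 and, for the one that joined it through the updated symbol, 0.20. Their adjusted p in limma was 0.649, 0.653 and 0.653. The opposite reading gave -0.22, -0.45 and -0.13, none with an unadjusted p under 0.05. Without LG GDNF 3 and LG control 2 the sizes were 0.32, 0.37 and 0.58, and no unadjusted p of the 3 was under 0.05 in limma. Of the 9 genes, 6 had a difference above 0, beside 46.5% of all genes, and their median difference was 0.15, against -0.020 over all genes.

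ANAPC5 also had an unadjusted p under 0.05 for the difference between the responses of the classes. In SM oocytes it had -0.20, 0.33 and 0.076 with GDNF, against 0.081, 0.79 and 0.018 without it. The LG response minus the SM response was 0.75 ± 0.32 for ANAPC5 (limma, adjusted p = 0.991) and -0.49 in the opposite reading. CDC20, the activator of the complex, had -0.73, -0.69 and 0.59 in LG GDNF, against 0.16, 0.83 and -0.29 in LG control. In SM oocytes CDC20 had -1.28, -0.66 and -0.091 with GDNF, against -0.74, -0.72 and 0.51 without it. These groups overlapped, and the differences of -0.51 in LG and -0.36 in SM had an SE of 0.34, and were -0.083 and -0.0016 in the opposite reading. CDC27 and CDC23, subunits of the arm that docks CDC20, and ANAPC4, a scaffold subunit, had LG GDNF minus LG control differences of 0.16, -0.024 and 0.15, and no unadjusted p under 0.05 in any comparison of the deposited ratios. CDC27 did have one in the opposite reading, in SM GDNF against SM control among others, -0.73 ± 0.29, against 0.44 as deposited. The LG difference of -0.024 for CDC23 averages 2 features at 0.27 and -0.32.

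The 14 CDK inhibitors and CDK-binding proteins held 3 of the 4 members with an unadjusted p under 0.05 for the class difference in the GDNF response, beside 4.19% of all genes. CDK2AP1 encodes a protein that binds CDK2 and is also a subunit of the NuRD chromatin complex. It had ratios of -0.26, 0.36 and 0.29 in LG GDNF, against -0.54, -0.72 and -0.53 in LG control. In SM oocytes CDK2AP1 had -0.12, 0.35 and -0.21 with GDNF, against -0.27, 0.65 and -0.025 without it. All 3 LG control arrays lay below the other 9. The difference in LG was 0.72 ± 0.24, with the smallest p of the members there (limma, adjusted p = 0.646). By slide it was 0.28, 0.89 and 1.00. LG control against SM control gave -0.72 ± 0.24 for CDK2AP1 (limma, adjusted p = 0.674). Without LG GDNF 3 and LG control 2 the sizes were 0.58 and 0.60. The opposite reading gave -0.54 and 0.53, neither with a p under 0.05. The class difference in the response of CDK2AP1 was 0.83 ± 0.34 (limma, adjusted p = 0.991), and -0.75 with slides 2 and 3 turned.

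CDK2AP2, a paralog of CDK2AP1, was among the 5 members of smallest p in 3 comparisons. Its ratios were -0.21, -0.091 and 0.023 in LG GDNF, against -0.38, -0.42 and -0.34 in LG control. In SM oocytes CDK2AP2 had -0.80, -0.24 and -0.20 with GDNF, against -0.095, -0.10 and -0.12 without it. Neither pair overlapped, and the GDNF arrays were on opposite sides of their controls in the 2 classes on every slide. The response was 0.29 ± 0.16 in LG and -0.31 ± 0.16 in SM, and in the opposite reading -0.17 and -0.16. By slide the SM response of CDK2AP2 was -0.70, -0.11 and -0.13, so slide 1 lay far from the others. The class difference in the response of CDK2AP2 was 0.60 ± 0.22 (limma, adjusted p = 0.991), and -0.017 in the opposite reading.

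CDK5R1 encodes the activator of CDK5 that is best known from neurons. It had -0.35, -0.37 and 0.34 in LG GDNF, against 0.078, 0.56 and -0.25 in LG control. In SM oocytes CDK5R1 had -0.023, -0.23 and -0.30 with GDNF, against -1.11, -0.44 and -0.49 without it. The SM groups did not overlap, and neither did the control groups of the 2 classes. LG control against SM control gave 0.81 ± 0.23, the smallest p of any member in any comparison with the deposited ratios (limma, adjusted p = 0.674). By slide it was 1.19, 0.19 and 1.05. In the opposite reading this difference was -0.017 ± 0.34, and on slides 2 and 3 alone 0.62, without an unadjusted p under 0.05. In SM oocytes the GDNF difference of CDK5R1 was 0.49 ± 0.23 (limma, adjusted p = 1), and 0.23 in the opposite reading. The class difference in its response was -0.75 ± 0.33 (limma, adjusted p = 0.991), and -0.26 with slides 2 and 3 turned.

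The classical CDK inhibitors had smaller differences. CDKN1A, an inhibitor of cyclin E-CDK2 and other CDK complexes, was above 0 on all 12 arrays, from 0.021 to 0.46, and had 0.25, 0.19 and 0.10 in LG GDNF, against 0.32, 0.46 and 0.35 in LG control. Its LG groups did not overlap, and differed by -0.19 ± 0.14, with an adjusted p of 0.787 in limma and 0.15 in the opposite reading. These values of CDKN1A average 2 features that correlated at -0.484. Their LG differences were 0.050 and -0.43, and each feature lay below 0 on some arrays. CDKN2B, CDKN2C and CDKN2D, inhibitors of CDK4 and CDK6, had LG GDNF minus LG control differences of -0.28, -0.12 and 0.040. CDKN3, a phosphatase that acts on CDKs, had a highest ratio of 1.52, on LG control 2, and a lowest of -0.63, on LG control 1.

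The 10 cyclins and CDKs of transcription and RNA processing gave 1 member with an unadjusted p under 0.05 in LG GDNF against LG control, beside 7.57% of all genes, and 1 in LG control against SM control, beside 7.1%. CCNL2, a cyclin linked to splicing, had 0.10, -0.16 and -0.34 in LG GDNF, against 0.37, 0.17 and 0.13 in LG control. These groups did not overlap, and differed by -0.36 ± 0.13 (limma, adjusted p = 0.646), with 0.17 in the opposite reading. Without LG GDNF 3 and LG control 2 the size for CCNL2 was 0.28, with an unadjusted p above 0.05 in limma. CCNK, the partner of CDK12, had -0.026, 0.14 and -0.32 in LG control, against -0.55, -0.75 and -0.19 in SM control. Its difference was 0.43 ± 0.18 (limma, adjusted p = 0.692), and -0.080 in the opposite reading. The 4 features of CCNK ranged from 0.063 to 0.87 in this difference, with a median correlation of 0.107 between them. CDK12 itself, a kinase of RNA polymerase II, had no p under 0.05 with the deposited ratios and one in all 5 comparisons in the opposite reading. Its class difference in the response was -0.32 as deposited and 1.20 ± 0.31 in the opposite reading. Both CDK12 and CDC27 were singled out after their values were seen.

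In the remaining groups, CCNJ, a cyclin of little-known function in mammals, had 0.31, 0.33 and 0.18 in LG GDNF, against -0.36, 0.13 and -0.67 in LG control. The groups did not overlap, and CCNJ differed by 0.57 ± 0.20 (limma, adjusted p = 0.646). The opposite reading gave -0.13, and the size without LG GDNF 3 and LG control 2 was 0.83. CCNI, an atypical cyclin, and CDKN2C were among the 5 members of smallest p in LG GDNF against SM GDNF, at -0.39 ± 0.23 for CCNI and -0.24 ± 0.15 for CDKN2C, with an adjusted p of 1 each in limma. In the opposite reading they were 0.32 and 0.069. CDKL1 and CDKL4, kinases related to CDKs by sequence, were among the 5 of smallest p in SM GDNF against SM control, at 0.31 ± 0.15 for CDKL1 and -0.39 ± 0.22 for CDKL4, with an adjusted p of 1 each. The opposite reading gave -0.012 and -0.12, and without SM GDNF 1 the difference was -0.14 for CDKL4. CDC6 and CDC45, which load and activate the replicative helicase, had no difference above 0.37 in size between groups. CDC40, a splicing factor, had the largest SD of the members, 1.52. Its ratio was 5.20 on LG control 2, and the next highest of the 12 was 1.43 on SM control 2.

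The 11 members with an unadjusted p under 0.05 in LG GDNF against LG control were compared between the readings of the ratios. Above 0 were 8 of them, CDK2AP1, CCNE1, CCNJ, CKS2, CKS1B, ANAPC1, ANAPC5 and ANAPC10, beside 4.49% of all genes. Below 0 were 3, CCNL2, CCND2 and PLK2, beside 3.08%. All 11 were on 1 side on the 3 slides. For such members, turning slides 2 and 3 turns the sign unless slide 1 exceeds both together, and it generally widens the spread between slides. In the opposite reading all 11 turned sign and 0 of them kept an unadjusted p under 0.05, which thus follows largely from the choice of members. That reading gave 4 other members, CCND3, CCNI, CDK12 and CDC37L1, beside 4.79% of all genes. On slides 2 and 3 alone 7 members counted, beside 5.13%, and 5 of these were among the 11. In LG control against SM control all 6 members turned sign in the opposite reading, which gave 3 others, beside 3.87%. Turning slides 2 and 3 gave 3 members in SM GDNF against SM control, beside 2.1%, 7 in LG GDNF against SM GDNF, beside 4.11%, and 5 for the class difference in the response, beside 4.39%. Slides 2 and 3 alone gave 4 members in LG control against SM control, beside 4.48%, and 2, CCND2 and PLK2, in LG GDNF against SM GDNF, beside 1.79%. They gave 0 in SM GDNF against SM control in limma, beside 1.18%, and 3 for the class difference, beside 3.44%. In none of the 5 comparisons was a member under 0.05 in both readings. The 11 were chosen by their p in the deposited ratios, which favours that reading.

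**Figure D3:**
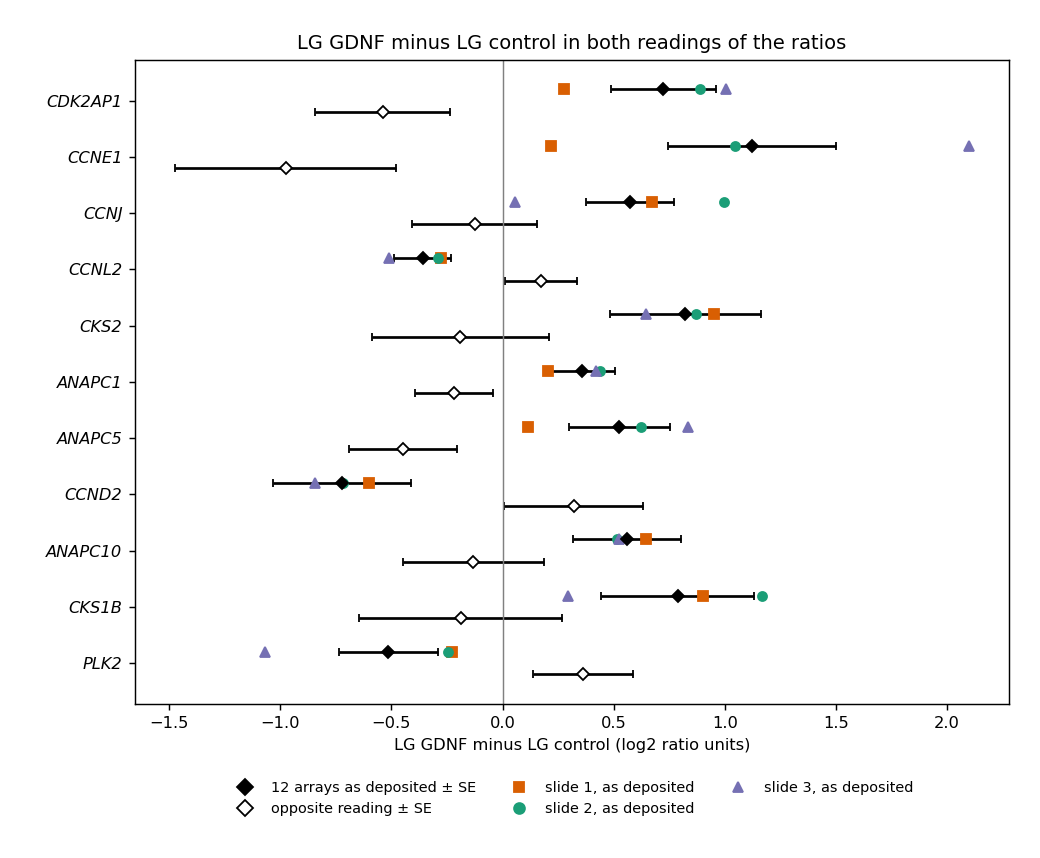
LG GDNF minus LG control in log2 ratio units for the 11 members with an unadjusted p under 0.05, with filled diamonds for the deposited ratios of 12 arrays, coloured symbols for the single slides and open diamonds for the opposite reading (± SE). Each single slide lies on the side of the filled diamond. Every open diamond lies across 0 from its filled one, which follows largely from this.

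Groups that did not overlap were 10 members in LG GDNF against LG control, beside 10.6% of all genes, and 6 in SM GDNF against SM control, beside 7.15%. They were 5 members in LG control against SM control, beside 9.38%, and 2, ANAPC1 and CCNY, in LG GDNF against SM GDNF, beside 6.55%. The margin of ANAPC1 was minimal, 0.1602 on LG GDNF 3 against 0.1601 on SM GDNF 1, and CCNY averages 2 features that correlated at -0.0878. Members on 1 side on all 3 slides numbered 23 in LG GDNF against LG control, beside 30.1% of all genes, and 9 in SM GDNF against SM control, beside 18.6%. They numbered 17 in LG control against SM control, beside 26.2%, and 12 in LG GDNF against SM GDNF, beside 18.3%, and 14 for the class difference in the response, beside 20.6%. These shares of the 79 were close to or below those of all genes.

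Of 45 listed regulators and substrates of the same pathways that are no members, 32 were measured. None had an adjusted p under 0.05 in limma in any comparison. In LG GDNF against LG control 5 of the 32 had an unadjusted p under 0.05, beside 7.57% of all genes, all with a difference above 0. MAD2L1, the checkpoint protein that binds CDC20, differed by 1.99 ± 0.62 (limma, adjusted p = 0.646), at 1.35, 2.37 and 2.25 by slide. FBXO43, the inhibitor that keeps the second arrest, differed by 1.34 ± 0.51 (limma, adjusted p = 0.646). The others were GMNN, an inhibitor of replication licensing, RAD21, a cohesin subunit, and E2F4, a transcription factor. The opposite reading gave -1.09 for MAD2L1 and -0.89 for FBXO43, and no p under 0.05 for any of the 5. LG control against SM control also had 5 such partners, beside 7.1% of all genes: GMNN, MAD2L1, FBXO43, SKP2, an F-box protein of CDK inhibitor turnover, and MOS. That comparison uses the same LG control arrays. MAD2L1 and FBXO43 were at -1.73 and -1.33 there, opposite in sign to the LG GDNF differences. SKP2 was the single partner below 0.05 in LG GDNF against SM GDNF, beside 2.41% of all genes, at 0.49 ± 0.13 (limma, adjusted p = 1), and -0.20 in the opposite reading.

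Members were then compared with each other over the 12 arrays after removal of the slide means. Over all 3081 pairs of members the median Pearson correlation was 0.0523. The 21 pairs within the 7 M-phase genes had a median of 0.473, from 0.0904 to 0.929, the highest being CCNB3 with CDK1. BUB1B correlated with CKS1B at 0.945, with CDK5RAP1, an RNA-modifying enzyme named for CDK5 binding, at 0.942, and with CCNH, the cyclin of the CDK-activating kinase, at 0.926. Its correlation with CCNG1, an atypical cyclin, was 0.913, and with BUB3 0.814. CDC37, the HSP90 co-chaperone that delivers kinases including CDK4, ran against them, at -0.921 with BUB1B, -0.952 with CCNG1 and -0.941 with CCNH. Other high pairs were ANAPC13 with CDKN3 at 0.945, and CCNE1 with CDK2AP1 at 0.907. ANAPC10 with CDC20 had -0.918. These values were picked out of 3081 after they were seen. The 12 points share 1 reference and the group differences were not removed, so the values are descriptions of these arrays with no test.

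**Figure D4:**
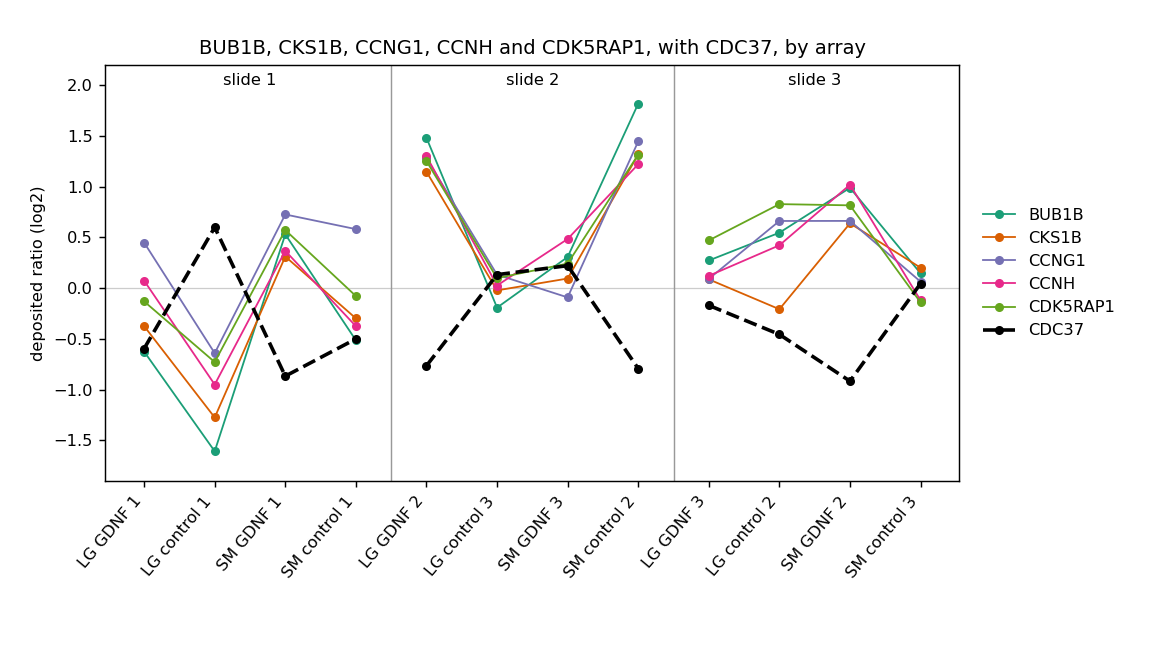
Deposited log2 ratio (y axis) of BUB1B, CKS1B, CCNG1, CCNH and CDK5RAP1, with CDC37 as a dashed black line, on the 12 arrays ordered by slide (x axis). The 5 genes are highest on SM control 2 and LG GDNF 2, both on slide 2, where CDC37 is at -0.79 and -0.76, and lowest on LG control 1, where CDC37 reaches 0.60.

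How far separate features of 1 gene followed each other was examined for the 31 members that had several. The median correlation between features over the 12 arrays was 0.398 in these members and 0.0975 over the 3326 genes with several features. It exceeded 0.5 in 11 of the 31 members (35.5%), against 16.4% of all such genes. CCNG1 had 0.882 between its 2 features, and AURKA a median of 0.769 over 3 features. CDK1 had a median of 0.572 over 3 features, and BUB3 0.617 over 3. For CDC25C, with 6 features, it was 0.388, and for CDKN3, with 5, it was 0.49. CDK2, CDK7 and PLK4, with 3 or 4 features each, had medians of -0.131, -0.193 and -0.542, so the features of these genes did not follow each other. CDK2 and PLK4 were also the members of lowest SD, at 0.10 and 0.079. The small differences given for them are averages over features that disagree.

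**Figure D5:**
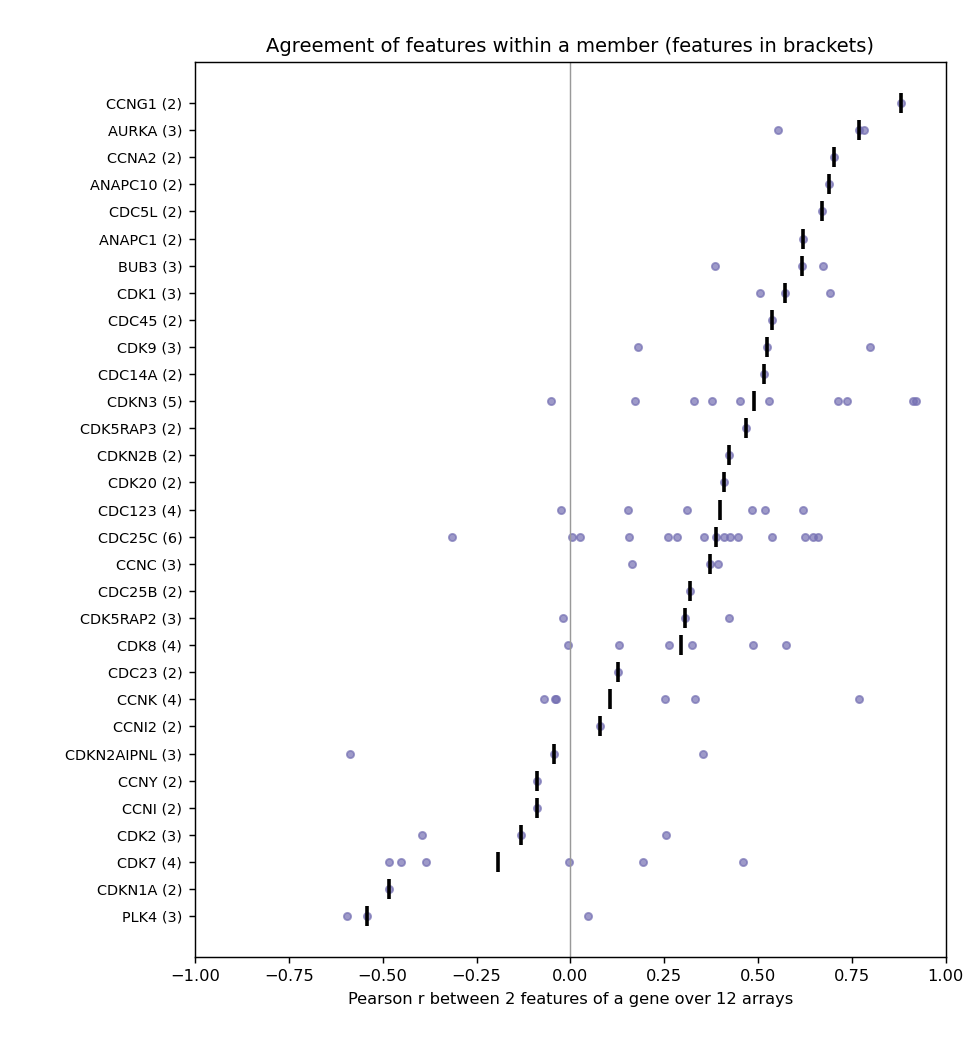
Pearson correlation over the 12 arrays between features of the same gene (x axis) for the 31 members with several features, with a point for each pair of features and a bar for the median. CCNG1 and AURKA lie at the top, and PLK4, CDKN1A and CDK7 below 0.

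The slide accounted for a median of 20.3% of the variance of a member over the 12 arrays, and for 18.7% over all genes. Of what was left, the 4 groups accounted for a median of 27.6% in the members and 30.8% in all genes. The members with the largest share by group were CCNL2 with 80.2%, CCNA2 with 64.7%, CDK5R1 with 64.1% and CDK2AP1 with 64.1%. Fitting 4 groups to 12 arrays takes up part of the remainder even where the groups do not differ. That part was not subtracted, so these shares do not measure an effect of the groups. The largest shares were picked from the top of all members. Most of the remainder of a typical member lay between pools of the same group, which this design gives even without group differences. The median share by group was no higher in the members than in all genes.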

How the data were processed

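The deposited table holds 1 ratio per feature and array, read as log2, which the authors made from 2-colour arrays of amplified RNA, primed with oligo(dT) per the labels' protocols. Log base, numerator channel, normalization method and genome build: not given in the sources used here. All deposited arrays have a median near 0 and the same median absolute ratio, 0.267. Of 45220 features, 18121 carry 1 gene symbol on the platform and 27099 none. Symbols were updated through RefSeq accessions and current symbols, and features of a gene were averaged.

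All 11913 genes were fitted with limma 3.58.1 in R 4.3.3, with the 4 groups and the slide as terms and 6 residual degrees of freedom. Moderated tests were two-sided, with Benjamini-Hochberg adjustment over all genes of a comparison. The fit was tested on simulated data. Spot intensities were not used, so dim or saturated features could not be set aside. The members and lists were chosen with earlier results of these data known. Members named with values are a core set of M-phase and S-phase regulators and the 5 of smallest p in each comparison. Those with p under 0.05 in the comparison discussed and the 5 of largest SD are also given, and others are named by role. The core set also listed CCNB1, CDC25A, PLK1, AURKB, AURKC, BUB1, CDC16, CDC26 and CDKN1B, whose symbols no feature carried. Alternatives covered the opposite reading, slides 2 and 3 alone, the slide term, array weights, normalization, averaging and each array left out.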

Additional observations from a re-analysis of the deposited data

Results flagged for a closer look

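In 2 of the 79 members, CDK2AP2 and CDK5R1, the difference between GDNF and control lay on opposite sides of 0 in LG and in SM oocytes on all 3 slides. That is 2.53% of the members, beside 2.45% of all 11913 genes. For CDK2AP2 the LG response minus the SM response was 0.598 on the log2 scale, and limma's interaction term gave an adjusted p of 0.991. For CDK5R1 it was -0.7497, with an adjusted p of 0.991 in limma, and in both the unadjusted p was under 0.05. The test of the difference therefore did not pass for either gene. In the opposite reading of the ratios the values were -0.017 for CDK2AP2 and -0.26 for CDK5R1.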

How the results depend on the processing

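No gene had an adjusted p under 0.05 in limma in any of the 5 comparisons under any of the 23 alternatives. The number of members at an unadjusted p under 0.05 did change. In LG GDNF against LG control, 11 members became 4 in the opposite reading, 7 on slides 2 and 3, and 6 with no slide term. They became 7 with the slide as a random block and 19 with array weights. Without LG GDNF 3 and LG control 2 together, the set itself changed in this comparison. Members no longer under 0.05 included ANAPC1, ANAPC5, ANAPC10, CCNE1, CCNL2 and PLK2. Members that came under it included ANAPC13, BUB1B, CCNA1, CCNG1 and CCNH. ANAPC13 also turned sign, from -0.017 to a size of 0.91. In LG control against SM control, 6 became 3 in the opposite reading, 3 with no slide term, 3 with the random block, and 13 with array weights. In SM GDNF against SM control, 0 became 3 in the opposite reading, 3 with array weights and 1 without LG GDNF 3 and LG control 2 together. In LG GDNF against SM GDNF, 0 became 7 in the opposite reading, 2 on slides 2 and 3, and 1 without those arrays. The class difference in the response went to 2 members with no slide term, 2 with the random block and 7 with array weights, against 4. Leaving out each array in turn gave 2 to 12 members in LG GDNF against LG control, lowest without LG GDNF 2. It gave 2 to 9 in LG control against SM control, lowest without LG control 3 and highest without LG control 2. It gave 0 to 5 in SM GDNF against SM control and 0 to 4 in LG GDNF against SM GDNF, both highest without SM GDNF 3. It gave 1 to 7 for the class difference, lowest without SM control 1 and highest without SM GDNF 2. Whether pool numbers in the labels pair the arrays could not be told. Same-numbered arrays correlated between -0.5015 and 0.5753 over 18 pairs of deviations from group means. Arrays of the same slide had a like range, -0.44 to 0.58, and many same-numbered pairs also share a slide. With the pool number as a replicate block, 2 members counted for the class difference, 13 in LG GDNF against LG control and 6 in LG control against SM control. Over the 136 values of named members, 3019 of 3128 recomputed values moved by less than 1 SD and 283 turned sign. The SD is that of the gene within groups. Each slide held a single array of each group, so several alternatives cannot change a difference between a pair of groups. Examples are no slide term, the random block and leaving out an array of another group. The count of values that moved little is therefore no measure of stability. The cause of the changes in count and sign was not tested. With 3 arrays a group and a median standard error of 0.196, differences of the members' median size could not be told from 0.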
